A study of Macaca fascicularis with 8 samples.

Results

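Aminoacyl-tRNA synthetases are the enzymes that join each amino acid to its transfer RNA (tRNA). The set described here was taken from the deposited table by protein description: a gene belonged to it when its best protein match was described as a tRNA ligase or tRNA synthetase at 85% identity or more. The description matched 33 of the 33121 gene rows, and all 33 reached that identity. They named 30 proteins, 3 of which (histidyl, leucyl and threonyl) had more than 1 row. One row was kept per protein, the one with the highest mean RPKM over the 8 libraries (RPKM, reads per kilobase of gene model per unit of library depth, is a level corrected for length). By description, 11 of the 30 are mitochondrial enzymes. The other 19 were counted as cytosolic, although the description of 7 of them gives no compartment. The names are those of the matched proteins, so a close copy of a gene may share its reads.

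The study compared gene expression of dome-shaped and primed embryonic stem cells (ESCs) of the cynomolgus monkey, Macaca fascicularis, by sequencing polyadenylated RNA in 4 libraries per state. The dome-shaped ESCs tolerated passage as single cells and grew in a medium called NHSMV. It is based on knockout DMEM with AlbuMAXI and N2 supplement, and it holds insulin, leukaemia inhibitory factor, bFGF, TGF-β1, glutamine, nonessential amino acids, β-mercaptoethanol and vitamin C. Its inhibitors are PD0325901 (of MEK), CHIR99021 (of GSK3), SP600125 (of JNK) and a pair directed at p38, SB202190 and SB203580. The primed ESCs grew as flat colonies in CESM, a mixture of the commercial PSGro medium with conventional monkey ESC medium, and were passaged poorly as single cells. The labels list no amino acid content for CESM. Medium, colony shape and cell state coincide in these samples and cannot be told apart. The labels give no sex, age or clone of the cells, and do not say whether libraries with the same number in their titles come from the same line. The p-values therefore measure the spread between these libraries, which may be technical in part.

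In animal cells a nuclear gene makes each synthetase. Most amino acids have an enzyme for translation in the cytosol and another that is imported into mitochondria, while glycyl-tRNA synthetase (GARS1) and lysyl-tRNA synthetase (KARS1) serve both compartments from the same gene. Several cytosolic synthetases sit together in the multisynthetase complex on the scaffold proteins AIMP1, AIMP2 and EEF1E1. In human and mouse cells, uncharged tRNA activates the kinase GCN2 (EIF2AK4), which favours translation of the transcription factor ATF4, and ATF4 is known to raise transcription of many cytosolic synthetase genes together with genes of amino acid synthesis and uptake.

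The RPKM values implied 14400000 to 17680000 reads per dome-shaped library and 16360000 to 18080000 per primed library. Of the 8 ESC markers checked, all were tested and 4 were lower in dome-shaped ESCs, with summed levels of 1774 to 2447 RPKM in dome-shaped and 2580 to 2919 RPKM in primed libraries. All 6 epithelial markers were lower, with sums of 203.6 to 359.6 RPKM in dome-shaped and 753.4 to 898.4 RPKM in primed libraries. Of 5 mesenchymal genes 4 were higher, with sums of 543 to 926 RPKM in dome-shaped and 57.0 to 369.6 RPKM in primed libraries. Sums over the 8 fibroblast markers were 49.3 to 68.5 RPKM in dome-shaped and 69.5 to 255.1 RPKM in primed libraries. Of the 5 that were tested PDGFRB was lower and none was higher, and COL3A1 leaned the other way (log2 fold change 1.33, adjusted p = 0.20). COL1A1 held 14.0 to 44.9 RPKM in dome-shaped and 38.8 to 136 RPKM in primed libraries. DCN was at 0.126 RPKM or below in all libraries, and LUM at 0.574 RPKM or below in all but primed replicate 3 (11.8 RPKM). These marker levels moved with the groups, and their part in the synthetase results was not tested. In RNA of whole cultures, fewer cells of a type and less RNA per cell cannot be told apart.

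Cytosolic synthetases were abundant in both states and leaned towards higher levels in dome-shaped ESCs, while the mitochondrial enzymes did not. Genes were tested when they had at least 1 RPKM in at least 4 libraries, with limma on log2(RPKM + 1), and called at a Benjamini-Hochberg adjusted p under 0.05 over all 15597 genes tested. Of the 30 synthetases, 29 passed that filter. The cytosolic enzymes TARS3, SARS1 and WARS1 rose, and no synthetase of either compartment fell. Over all genes tested, 14.3% were called, 6.38% higher and 7.96% lower. The 18 tested cytosolic enzymes had 15 positive and 3 negative log2 fold changes with a median of 0.22, and the 11 mitochondrial enzymes had 4 positive and 7 negative ones with a median of -0.11. The median over all genes tested was 0.03, and 53.2% of them had a positive fold change. Apart from the low TARS3, the tested cytosolic enzymes averaged 50.5 to 172.6 RPKM over the 8 libraries, and the mitochondrial ones 8.82 to 54.6 RPKM.

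**Figure D1:**
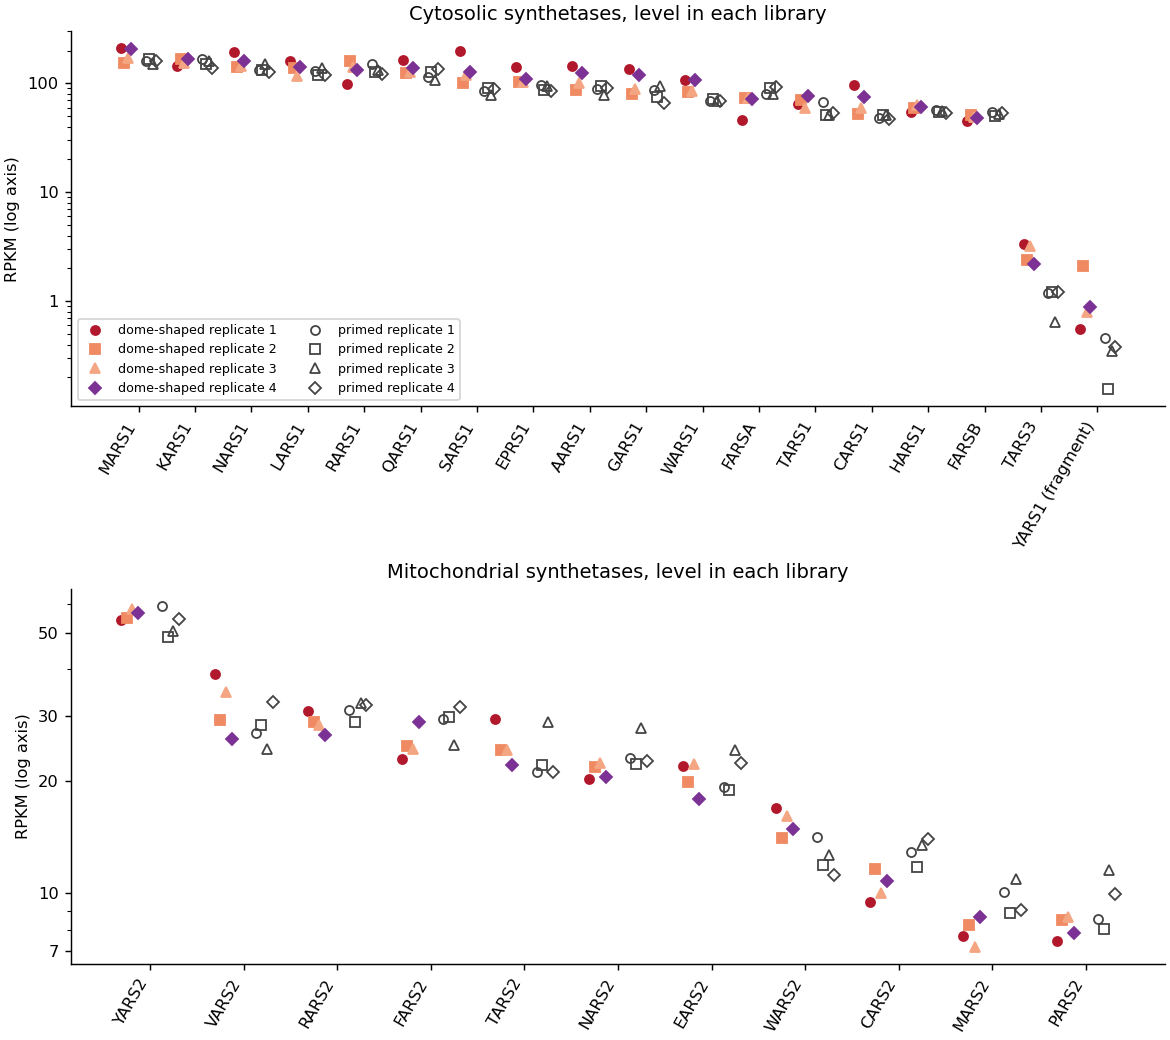
RPKM (log axes) of 29 of the 30 synthetases in each library, cytosolic enzymes above and mitochondrial enzymes below, ordered by mean level; filled symbols are dome-shaped replicates 1 to 4 and open symbols primed replicates 1 to 4. Most cytosolic enzymes lie near 100 RPKM, with TARS3 and the tyrosyl fragment far below them, and YARS2 is the highest of the mitochondrial enzymes.

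Seryl-tRNA synthetase (SARS1, ENSMMUG00000021837) charges serine tRNA and also loads the selenocysteine tRNA with serine. Its level was 198, 101, 119 and 128 RPKM in dome-shaped replicates 1 to 4, against 85.9, 90.2, 78.5 and 88.2 RPKM in primed replicates 1 to 4. Every dome-shaped library lay above every primed library, and dome-shaped replicate 1 was far above the other dome-shaped libraries. The groups averaged 136.5 ± 42.8 and 85.7 ± 5.11 RPKM (SD, n = 4 each), a log2 fold change of 0.62 (SE 0.18, limma adjusted p = 0.0475). Without dome-shaped replicate 1 the log2 fold change was 0.43 and the call stood (adjusted p = 0.0274). The call was lost without dome-shaped replicate 3 or 4 or any 1 of the primed libraries (adjusted p 0.0649 to 0.11) and without the filter (0.0795), with quantile normalization (0.0535) or with median-of-ratios scaling (0.0507).

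Tryptophanyl-tRNA synthetase (WARS1, ENSMMUG00000013865) is known in human cells as a gene induced by interferon gamma. Levels of 106, 83.8, 84.5 and 108 RPKM in the dome-shaped libraries stood against 69.3, 71.7, 69.3 and 69.3 RPKM in the primed ones. The primed libraries were nearly equal and all dome-shaped libraries lay above them, with replicates 1 and 4 the highest. Means were 95.6 ± 13.2 RPKM in dome-shaped and 69.9 ± 1.23 RPKM in primed ESCs (SD, n = 4 each), a log2 fold change of 0.44 (SE 0.10, limma adjusted p = 0.0202). The call was lost without primed replicate 2, 3 or 4 (adjusted p 0.0506 to 0.053). The gene model is 2763 bases long, 193.9% of the coding length of its matched protein, so it counts more than the coding sequence.

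TARS3 (ENSMMUG00000000278) encodes a second cytosolic threonyl-tRNA synthetase, close in sequence to TARS1. It was the lowest of the tested enzymes, with 3.38, 2.40, 3.22 and 2.19 RPKM in the dome-shaped libraries and 1.20, 1.21, 0.646 and 1.21 RPKM in the primed libraries. The groups did not overlap. The means of 2.80 ± 0.593 and 1.07 ± 0.281 RPKM (SD, n = 4 each) gave a log2 fold change of 0.88 (SE 0.18, limma adjusted p = 0.0146), which the added 1 RPKM makes smaller than the 2.62-fold ratio of the means. A mean of 65.5 implied reads per library lay behind these values, and 24.6 in the lowest library. The row matched its protein at 94.9% identity, and a filter at a mean of 5 RPKM would remove it.

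**Figure D2:**
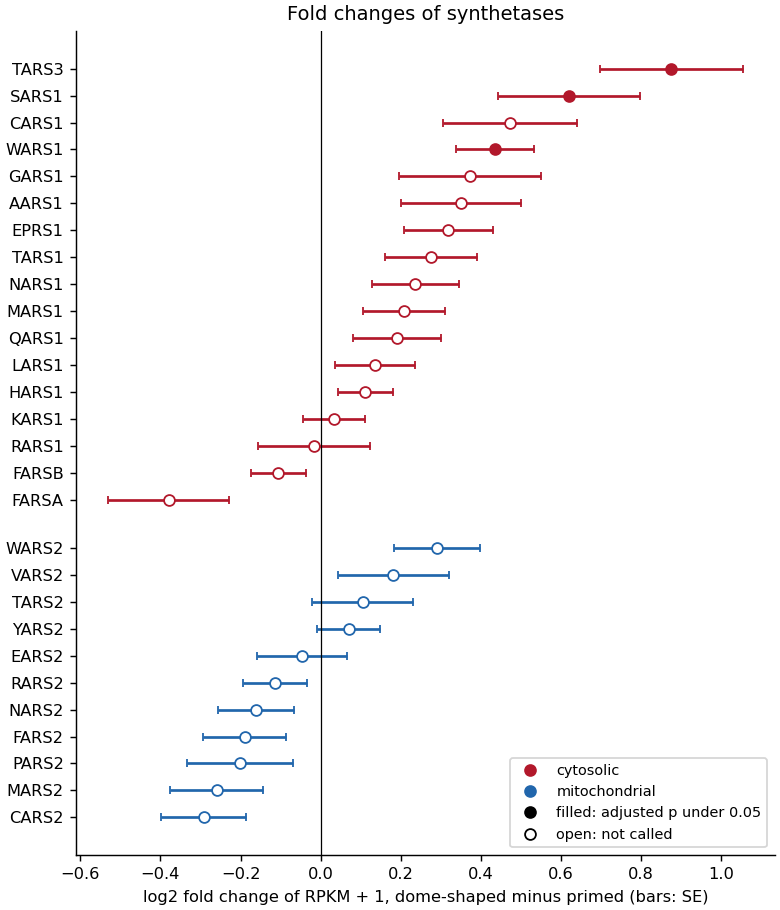
Log2 fold change of RPKM + 1, dome-shaped minus primed, with its standard error, for 28 of the 29 tested synthetases; cytosolic enzymes are red, mitochondrial enzymes blue, and filled points passed an adjusted p of 0.05. TARS3, SARS1 and WARS1 are the filled points, and 7 of the 11 mitochondrial enzymes lie left of 0.

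EPRS1 and CARS1 were above every primed library in all 4 dome-shaped libraries but did not pass the test. With the 3 called genes this made 5 of 18 tested cytosolic enzymes for which the dome-shaped libraries were all higher, against 11.5% of all genes tested. CARS1, the cysteinyl enzyme, had 97.0, 52.4, 58.8 and 74.5 RPKM in dome-shaped libraries and 48.0, 50.8, 51.4 and 46.9 RPKM in primed libraries (log2 fold change 0.47, SE 0.17, limma adjusted p = 0.0898). Its dome-shaped replicate 2 exceeded the highest primed library by about 1 RPKM, while replicate 1 was far higher; without replicate 1 the log2 fold change was 0.31. EPRS1, the bifunctional glutamyl-prolyl enzyme and the largest subunit of the multisynthetase complex, had 143, 103.7, 102.1 and 110.1 RPKM in dome-shaped libraries and 97.5, 86.7, 94.3 and 85.6 RPKM in primed ones (log2 fold change 0.32, SE 0.11, limma adjusted p = 0.084). Again replicate 1 was the highest of the dome-shaped libraries, and without it the log2 fold change was 0.21.

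TARS1, the main cytosolic threonyl enzyme, followed EPRS1 and CARS1 in the order of adjusted p among cytosolic enzymes with a positive difference. The TARS1 row held 65.0, 70.0, 59.5 and 76.8 RPKM in dome-shaped libraries and 67.9, 51.1, 51.1 and 54.0 RPKM in primed libraries (log2 fold change 0.28, SE 0.11, limma adjusted p = 0.135). Primed replicate 1 lay among the dome-shaped values, and without it the gene passed the test (log2 fold change 0.37, adjusted p = 0.0425).

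Only FARSA, FARSB and RARS1 among the tested cytosolic enzymes had negative fold changes, and none of them passed the test. FARSA and FARSB are the alpha and beta subunits of the single cytosolic phenylalanyl enzyme. FARSA had 46.1, 74.0, 73.7 and 72.3 RPKM in dome-shaped libraries, against 79.6, 89.8, 79.5 and 92.9 RPKM in primed libraries. All dome-shaped libraries were below all primed ones, which held for 10.7% of all genes tested, and replicate 1 was much lower than the other dome-shaped libraries. The log2 fold change was -0.38 (SE 0.15, limma adjusted p = 0.12), and without dome-shaped replicate 1 it was -0.22 (adjusted p = 0.0995).

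FARSB, the partner subunit, had 45.5, 51.4, 49.0 and 48.5 RPKM in dome-shaped libraries and 54.6, 49.7, 52.3 and 52.9 RPKM in primed libraries (log2 fold change -0.11, SE 0.07, limma adjusted p = 0.327). The groups overlapped, and the subunit was only slightly low in the library where FARSA stood apart. RARS1, the arginyl enzyme of the complex, had 98.3, 159, 142 and 132 RPKM in dome-shaped libraries and 149.8, 128, 132 and 121 RPKM in primed libraries. Its dome-shaped replicate 1 was the lowest of all 8 libraries and replicate 2 the highest; the log2 fold change of -0.02 (SE 0.14, limma adjusted p = 0.949) was 0.12 without replicate 1.

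The other tested cytosolic enzymes, all overlapping between the groups, had log2 fold changes of 0.03 (KARS1) to 0.37 (GARS1). AARS1 and GARS1, the alanyl and glycyl enzymes, were named after their values had been seen, because their dome-shaped libraries were widely spread. AARS1 had 145, 86.9, 100.1 and 126 RPKM in dome-shaped libraries and 88.9, 94.6, 77.9 and 91.1 RPKM in primed ones (log2 fold change 0.35, SE 0.15, limma adjusted p = 0.147). GARS1 had 136, 79.1, 89.6 and 119 RPKM in dome-shaped libraries and 86.2, 74.7, 94.2 and 66.5 RPKM in primed libraries (log2 fold change 0.37, SE 0.18, limma adjusted p = 0.181). For both genes dome-shaped replicates 1 and 4 were well above all primed libraries and replicate 2 was not; replicate 3 was above them for AARS1 but not for GARS1. Without dome-shaped replicate 1 the log2 fold changes were 0.23 for AARS1 and 0.24 for GARS1.

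Asparaginyl NARS1, methionyl MARS1, glutaminyl QARS1, leucyl LARS1 and histidyl HARS1 had log2 fold changes of 0.24, 0.21, 0.19, 0.14 and 0.11. Their limma adjusted p ran over 0.172, 0.196, 0.262, 0.378 and 0.30 in that order. Without dome-shaped replicate 1 the fold changes of NARS1, QARS1 and LARS1 were 0.14, 0.10 and 0.07 on the log2 scale. KARS1 stood at 157.7 ± 10.3 RPKM in dome-shaped and 154.2 ± 11.7 RPKM in primed ESCs (SD, n = 4 each; log2 fold change 0.03, adjusted p = 0.804). Several of these rows cover part of a gene: the LARS1 row spans 16.6% of the coding length of its matched protein entry, the TARS1 row 21.4% and the HARS1 row 58.2%. A matched entry may itself be partial, and those of HARS1 and MARS1 had 299 and 257 residues. A second LARS1 row, of 1353 bases, had 115, 96.8, 81.9 and 102.2 RPKM in dome-shaped libraries and 93.6, 83.7, 94.7 and 78.1 RPKM in primed ones, an order of libraries like that of the row used. A second HARS1 row, of 1753 bases against 522, had 22.3, 25.5, 23.4 and 20.9 RPKM in dome-shaped libraries. Its primed libraries had 22.0, 24.2, 24.6 and 21.9 RPKM, so it did not share the positive lean of the shorter row used. For TARS1 a second row, of 389 bases, had 34.25, 26.8, 27.5 and 31.0 RPKM in dome-shaped libraries. In primed libraries that row had 31.4, 25.6, 20.2 and 22.4 RPKM.

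The tyrosyl entry was a fragment. Its row (Novel00472) held 0.552, 2.11, 0.788 and 0.878 RPKM in dome-shaped libraries and 0.459, 0.155, 0.350 and 0.378 RPKM in primed libraries. A mean of 8.7 implied reads per library lay behind it, it passed 1 RPKM in 1 library, and it was not tested.

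Dome-shaped libraries differed more among themselves than primed libraries did for 16 of the 18 tested cytosolic enzymes (by the SD of log2 values), against 60.9% of all genes tested. For mitochondrial enzymes this held for 3 of 11. Replicate 1 was the highest dome-shaped library for 11 of the 18 cytosolic enzymes, against 35.4% of all genes, and the lowest for 5. The share of all genes with replicate 1 lowest was not computed. The set holds 7 members of the multisynthetase complex, among them EPRS1, LARS1, MARS1, QARS1, RARS1 and KARS1. Their log2 fold changes were -0.02 to 0.32 with a median of 0.17, and none was called. Of these 7, 2 had an unadjusted limma p under 0.05, against 31.6% of all genes tested. The 11 tested cytosolic enzymes outside the complex had a median of 0.35, with 3 called. By catalytic fold, the 6 tested class I cytosolic enzymes had a median of 0.20 with 1 called, and the 11 class II enzymes a median of 0.24 with 2 called; EPRS1 carries both folds and was left out of this split. The differences between these subgroups were not tested.

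None of the 11 mitochondrial enzymes passed the test in limma, and 3 had an unadjusted p under 0.05, against 31.6% of all genes tested. WARS2, the mitochondrial tryptophanyl enzyme, had the largest positive difference, with 16.9, 14.1, 16.1 and 14.9 RPKM in dome-shaped libraries and 14.2, 11.9, 12.7 and 11.2 RPKM in primed libraries. Its groups met only at dome-shaped replicate 2 and primed replicate 1 (log2 fold change 0.29, SE 0.11, limma adjusted p = 0.0998). VARS2, the valyl enzyme, had 38.9, 29.3, 34.8 and 25.95 RPKM in dome-shaped libraries and 27.0, 28.4, 24.4 and 32.6 RPKM in primed ones (log2 fold change 0.18, and 0.09 without dome-shaped replicate 1; limma adjusted p = 0.40).

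TARS2, the threonyl enzyme, had 29.4, 24.3, 24.3 and 22.2 RPKM in dome-shaped libraries and 21.2, 22.1, 28.8 and 21.2 RPKM in primed libraries, so that 1 library in each group stood above the rest (log2 fold change 0.10, and 0.03 without dome-shaped replicate 1 or 0.21 without primed replicate 3; limma adjusted p = 0.609). YARS2, the tyrosyl enzyme and the most abundant mitochondrial synthetase here, had 54.3, 54.9, 57.9 and 56.6 RPKM in dome-shaped libraries and 59.2, 48.9, 50.5 and 54.7 RPKM in primed libraries. Its log2 fold change was 0.07 (SE 0.08, limma adjusted p = 0.577).

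CARS2 and MARS2, the cysteinyl and methionyl enzymes, were the mitochondrial members whose groups did not overlap, with lower values in every dome-shaped library. Over all genes tested, 10.7% lay below in every dome-shaped library and 22.2% did not overlap in either direction, so 2 of 11 is near the share of all genes. CARS2 had 9.47, 11.6, 10.0 and 10.8 RPKM in dome-shaped libraries and 12.9, 11.8, 13.5 and 14.0 RPKM in primed ones (log2 fold change -0.29, SE 0.11, limma adjusted p = 0.0956). The gap between the groups was small at dome-shaped replicate 2 and primed replicate 2. MARS2 had 7.71, 8.22, 7.19 and 8.67 RPKM in dome-shaped libraries and 10.1, 8.84, 10.9 and 9.05 RPKM in primed libraries (log2 fold change -0.26, SE 0.12, limma adjusted p = 0.157).

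FARS2, the phenylalanyl enzyme, had 22.9, 24.9, 24.5 and 28.8 RPKM in dome-shaped libraries and 29.4, 29.7, 25.01 and 31.7 RPKM in primed libraries (log2 fold change -0.19, limma adjusted p = 0.24). NARS2, the asparaginyl enzyme, had 20.3, 21.9, 22.4 and 20.54 RPKM in dome-shaped libraries and 23.1, 22.3, 27.8 and 22.7 RPKM in primed ones (log2 fold change -0.16, and -0.09 without primed replicate 3; limma adjusted p = 0.277). Both overlapped between the groups, at 1 library each. The remaining prolyl PARS2, arginyl RARS2 and glutamyl EARS2 had log2 fold changes of -0.20, -0.11 and -0.05 and overlapping groups; that of PARS2 was -0.11 without primed replicate 3.

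Summed over the 19 cytosolic members, the level was 2132, 1762, 1767 and 1972 RPKM in dome-shaped libraries and 1683, 1643, 1635 and 1601 RPKM in primed libraries. All dome-shaped sums were above all primed sums, with replicates 1 and 4 the highest (1908 ± 178 against 1640.0 ± 33.9 RPKM; SD, n = 4 each). Over the 11 mitochondrial members it was 260.1, 246.4, 256.4 and 240.9 RPKM in dome-shaped libraries and 256.1, 239.9, 262 and 261.5 RPKM in primed libraries (251 ± 8.87 against 254.9 ± 10.3 RPKM), and the groups overlapped. These sums are descriptions and carry no test.

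**Figure D3:**
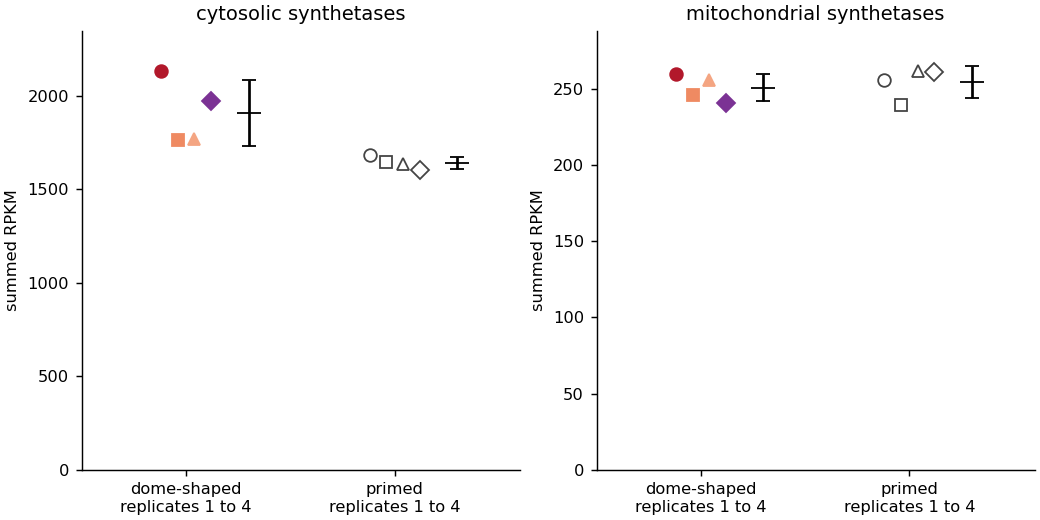
Summed RPKM of the 19 cytosolic members (left) and the 11 mitochondrial members (right) in each library, with the mean and SD of each group as a bar beside its points. The cytosolic sums are 1762 to 2132 RPKM in dome-shaped and 1601 to 1683 RPKM in primed libraries, and the mitochondrial sums overlap.

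Within a library, the ratio of the cytosolic to the mitochondrial enzyme of the same amino acid does not depend on library depth. Ratios were formed for 10 pairs in which both enzymes are in the set, some sharing an enzyme. The low TARS3 with TARS2, and the tyrosyl fragment with YARS2, were left out. The 10 ratios were tested with a two-sided exact permutation test over the 70 relabellings, whose smallest p is 0.0286. The CARS1 to CARS2 ratio was 10.2, 4.52, 5.87 and 6.91 in dome-shaped libraries and 3.72, 4.32, 3.82 and 3.35 in primed libraries (exact p = 0.0286, Benjamini-Hochberg adjusted over the 10 pairs 0.0953). The groups did not overlap, although dome-shaped replicate 2 was close to the highest primed ratio.

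NARS1 to NARS2 gave 9.62, 6.44, 6.40 and 7.88 in dome-shaped libraries and 5.71, 5.95, 5.38 and 5.56 in primed ones, also without overlap (exact p = 0.0286, adjusted 0.0953). EPRS1 to PARS2 gave 19.1, 12.2, 11.8 and 14.1 in dome-shaped libraries and 11.4, 10.8, 8.14 and 8.56 in primed ones (exact p = 0.0286, adjusted 0.0953). The other 7 pairs overlapped, with exact p of 0.0571 for MARS1 to MARS2 and for EPRS1 to EARS2 and 0.257 to 0.629 for the rest. The FARSA to FARS2 ratio alone was lower on average in dome-shaped than in primed libraries (2.63 ± 0.469 against 2.96 ± 0.199; SD, n = 4 each; exact p = 0.257). No pair passed 0.05 after adjustment, which would have needed at least 6 of the 10 pairs at the smallest p, so the adjusted values were nearly fixed by the design.

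**Figure D4:**
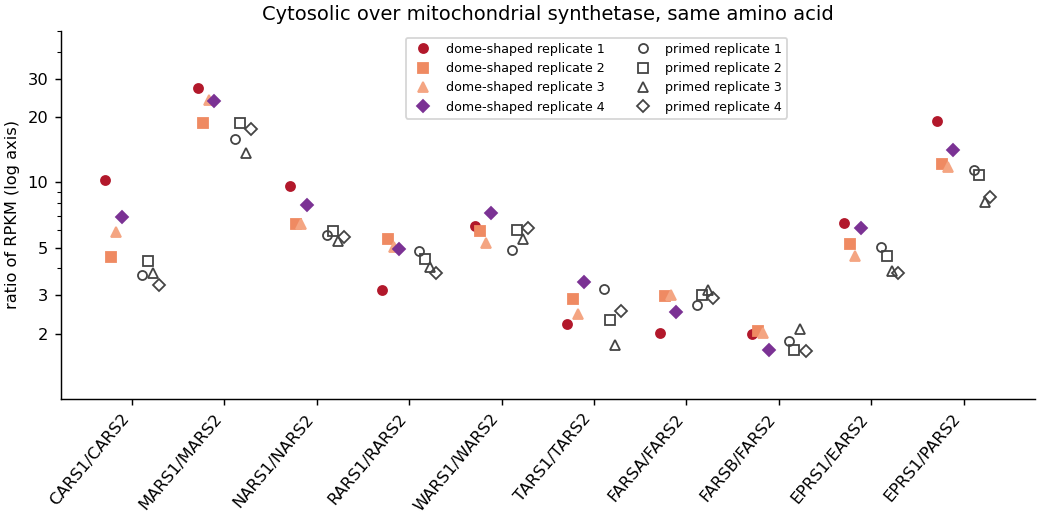
Ratio of the RPKM of the cytosolic to the mitochondrial synthetase of the same amino acid (log axis) in each library for 10 pairs; filled symbols are dome-shaped and open symbols primed replicates. The dome-shaped ratios lie above all primed ratios for CARS1/CARS2, NARS1/NARS2 and EPRS1/PARS2.

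The description rule misses synthetase rows whose best match is named otherwise. A row of TARS1 was missed by letter case alone, and TARS1 and YARS1 were already in the set as fragments. Outside the rule, 10 rows were found by symbol or by another match after the values of the set had been seen. The full tyrosyl gene YARS1 (ENSMMUG00000019746) was the clearest of them. It had 206.9, 234.9, 214 and 228.9 RPKM in dome-shaped libraries and 144, 126, 122 and 102.4 RPKM in primed libraries. The groups were far apart and the dome-shaped libraries close to each other, with replicate 1 the lowest of them. Means of 221.2 ± 12.9 and 123.5 ± 17.0 RPKM (SD, n = 4 each) gave a log2 fold change of 0.84 (SE 0.10, limma adjusted p = 0.00215), and the gene stayed called in all 15 alternatives run on it (adjusted p 0.00148 to 0.0128).

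No other row of these 10 was called. IARS1, the isoleucyl enzyme of the complex and the most abundant synthetase row found, averaged 350.5 ± 54.6 RPKM in dome-shaped and 290.1 ± 20.1 RPKM in primed ESCs (SD, n = 4 each; log2 fold change 0.26, limma adjusted p = 0.144). VARS1, the valyl enzyme, averaged 89.8 ± 10.8 and 105.6 ± 8.30 RPKM in the same order (log2 fold change -0.23, adjusted p = 0.14). The Ensembl row of TARS1 averaged 92.0 ± 10.1 RPKM in dome-shaped and 75.5 ± 12.4 RPKM in primed ESCs (log2 fold change 0.29, limma adjusted p = 0.141), close to the fold change of the fragment in the set.

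Of the 6 mitochondrial rows outside the rule, HARS2 was higher in every dome-shaped library, with 25.9, 24.7, 26.02 and 25.99 RPKM in dome-shaped and 21.5, 20.1, 22.3 and 22.1 RPKM in primed libraries (log2 fold change 0.25, SE 0.08, limma adjusted p = 0.0596). AARS2, IARS2, SARS2 and LARS2 overlapped between the groups, with log2 fold changes of 0.26, -0.09, -0.10 and -0.20.

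Among 28 genes of the amino acid response, ATF4 and genes known to respond to it other than synthetases, 26 were tested, PSAT1 and SHMT2 rose and none fell, with a median log2 fold change of 0.34. A count of 2 in 26 is near the 6.38% of all genes tested that were called higher. ATF4 itself had 514, 404, 429 and 594 RPKM in dome-shaped libraries and 297.5, 397, 334 and 375 RPKM in primed libraries. Every dome-shaped library was higher, with replicates 1 and 4 the highest, and the gene narrowly missed the test (log2 fold change 0.46, SE 0.14, limma adjusted p = 0.0525). PSAT1, a transaminase of serine synthesis, had 563, 179.5, 209.8 and 411 RPKM in dome-shaped libraries and 160.0, 125, 125 and 113 RPKM in primed libraries (log2 fold change 1.23, SE 0.33, limma adjusted p = 0.0373), a call lost without dome-shaped replicate 1 (0.0551) or 4 (0.0675), without primed replicate 2, 3 or 4 (0.0829 to 0.0884) and without the filter (0.0678).

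SHMT2, the mitochondrial enzyme that splits serine to glycine, had 229, 120.5, 147 and 214 RPKM in dome-shaped libraries and 93.2, 82.4, 68.5 and 68.6 RPKM in primed ones (log2 fold change 1.14, SE 0.20, limma adjusted p = 0.00908). All dome-shaped libraries were higher, and replicates 1 and 4 again led. ASNS, asparagine synthetase and a standard marker of the response in mammalian cells, had 269, 62.3, 74.2 and 206 RPKM in dome-shaped libraries and 86.8, 70.0, 66.8 and 58.1 RPKM in primed libraries (log2 fold change 0.85, SE 0.43, limma adjusted p = 0.21). Replicates 1 and 4 were far above all primed libraries, and replicates 2 and 3 lay within the primed range; without replicate 1 the log2 fold change was 0.49.

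CHAC1, which degrades glutathione, had 32.0, 3.78, 6.64 and 32.3 RPKM in dome-shaped libraries and 4.93, 3.89, 3.63 and 2.62 RPKM in primed libraries (log2 fold change 1.59, SE 0.60, limma adjusted p = 0.106). It was singled out after its values were seen and shows the same libraries high. Within the dome-shaped group replicate 1 was the highest for 10 of the 26 tested genes, a share near the 35.4% of all genes, and the lowest for 3. Replicate 4 was the highest for 15. For the counts of 3 and 15 the share of all genes was not computed. The log2 SD was larger in dome-shaped than in primed libraries for 24 of 26, against 60.9% of all genes tested. Whether the level of this response accounts for the spread of the cytosolic synthetases was not tested.

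**Figure D5:**
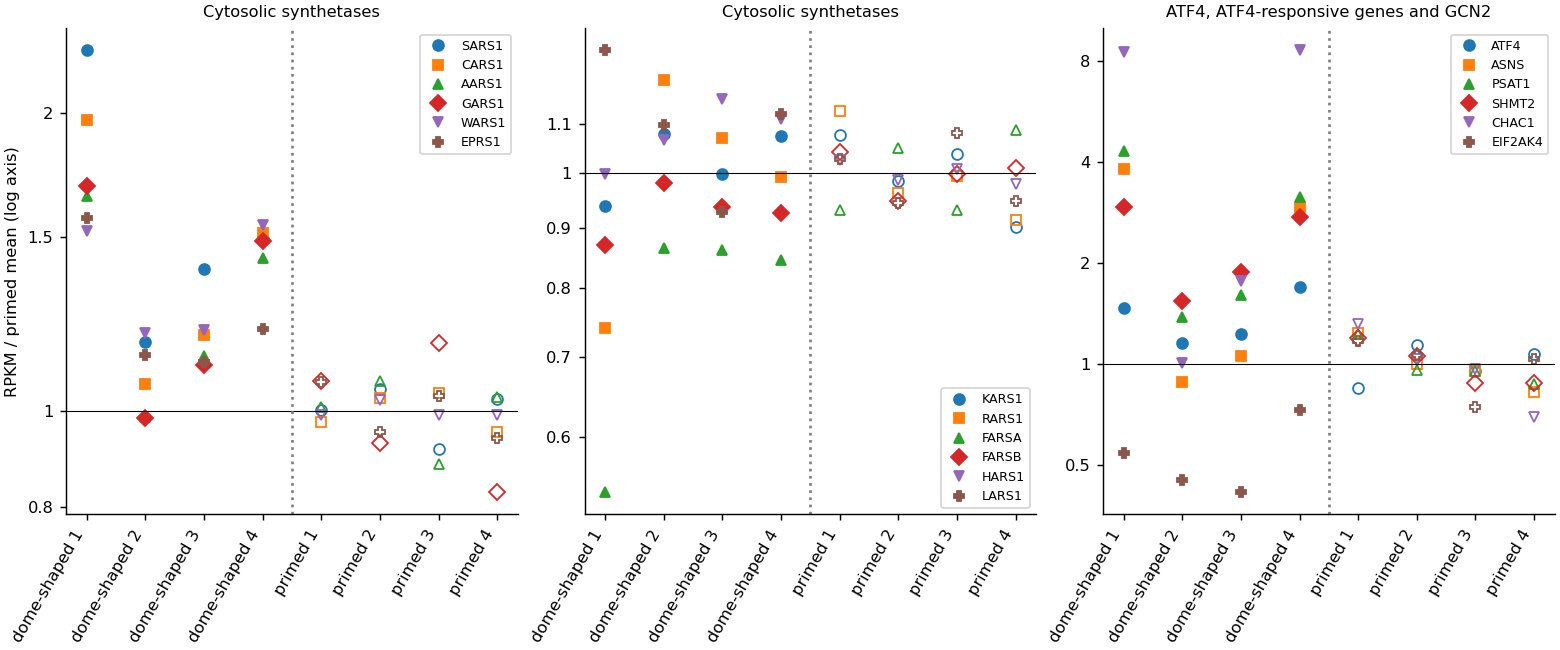
RPKM divided by the mean of the primed libraries (log axes) in each library for 12 cytosolic synthetases (left and middle) and for ATF4, ASNS, PSAT1, SHMT2, CHAC1 and EIF2AK4 (right); filled symbols are dome-shaped and open symbols primed libraries. SARS1, CARS1, AARS1, GARS1, WARS1 and EPRS1 are highest in dome-shaped replicates 1 and 4. For FARSA, FARSB, RARS1, KARS1 and HARS1, replicate 1 is the lowest of the dome-shaped libraries. ATF4, ASNS, PSAT1, SHMT2 and CHAC1 are also highest in replicates 1 and 4. Other genes of the response, not drawn, differ: SLC7A5 and SLC38A2 are lowest in dome-shaped replicate 1.

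All 5 kinase and activator genes upstream of ATF4 had negative fold changes, and EIF2AK4 fell. Over all genes tested, 53.2% had a positive fold change and 7.96% were called lower. EIF2AK4 encodes GCN2, the kinase that senses uncharged tRNA. It matched more than 1 row, of which 1, paired by protein name, is given. It had 23.3, 19.3, 17.8 and 31.4 RPKM in dome-shaped libraries and 50.2, 45.4, 31.8 and 44.4 RPKM in primed ones, where dome-shaped replicate 4 and primed replicate 3 nearly met (log2 fold change -0.89, SE 0.19, limma adjusted p = 0.0175). The call was lost without dome-shaped replicate 2 (adjusted p = 0.0537) or primed replicate 2 (0.0527). GCN1, its activator, had a log2 fold change of -0.26 (limma adjusted p = 0.0884). EIF2AK3 (PERK), the kinase of the endoplasmic reticulum, had one of -0.35 (limma adjusted p = 0.125). Like EIF2AK4, both were lower in every dome-shaped library than in any primed library, which held for 10.7% of all genes tested. The haem-regulated EIF2AK1 and the RNA-activated EIF2AK2 overlapped.

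None of the 3 scaffold genes of the multisynthetase complex was called, and none had an unadjusted p under 0.05 in limma. AIMP1 averaged 40.0 ± 2.41 RPKM in dome-shaped and 39.6 ± 5.11 RPKM in primed ESCs (log2 fold change 0.02, which turned negative in 5 of 15 alternatives). AIMP2 averaged 67.0 ± 14.1 and 83.3 ± 11.3 RPKM in the same order (log2 fold change -0.33, limma adjusted p = 0.201). Replicate 1 was its lowest dome-shaped library at 47.3 RPKM, as for FARSA, FARSB, RARS1, KARS1 and HARS1. Without that library the AIMP2 log2 fold change was -0.17. EEF1E1 averaged 51.0 ± 5.25 RPKM in dome-shaped and 57.4 ± 5.30 RPKM in primed ESCs (log2 fold change -0.17, limma adjusted p = 0.271).

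Of the 9 tested genes for proofreading of charged tRNA and for tRNA-dependent amino acid synthesis, GATC fell and none rose. GATC is a subunit of the mitochondrial amidotransferase that turns glutamate on glutamine tRNA into glutamine. It had 15.7, 17.2, 13.8 and 17.0 RPKM in dome-shaped libraries and 22.5, 21.6, 25.1 and 19.4 RPKM in primed libraries (log2 fold change -0.45, SE 0.11, limma adjusted p = 0.0267), without overlap. The call was lost without dome-shaped replicate 2 or 3 and without primed replicate 1, 2 or 3 (adjusted p 0.05 to 0.0713). The other subunits of the same enzyme had positive values: QRSL1 had a log2 fold change of 0.22 (adjusted p = 0.0879) and GATB one of 0.09 (adjusted p = 0.485). None of the 15 tested genes of tRNA end maturation passed the limma test, and their median log2 fold change was 0.03. An unadjusted limma p under 0.05 was found for 4 of the 15, against 31.6% of all genes tested.

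Among the 10 elongation factors that bring charged tRNA to the ribosome or work beside them, EEF1A2 fell and none rose. EEF1A2, the form of the factor best known from muscle and neurons, had 5.11, 3.35, 2.78 and 6.76 RPKM in dome-shaped libraries and 23.7, 11.2, 11.9 and 9.35 RPKM in primed ones, with primed replicate 1 well above the other primed libraries (log2 fold change -1.42, SE 0.31, limma adjusted p = 0.0179). The call was lost without dome-shaped replicate 2 (adjusted p = 0.0544) or 3 (0.0522). EEF1A1, the common form, averaged 9403 ± 1774 RPKM in dome-shaped and 7622 ± 421 RPKM in primed ESCs (SD, n = 4 each; log2 fold change 0.29, limma adjusted p = 0.172).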

How the data were processed

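RNA of 4 dome-shaped and 4 primed ESC cultures was analysed. The authors deposited 1 table of RPKM values, with gene lengths and, per the file headers, the percent identity of each best protein match. Tools in the submitters' processing notes are TopHat2 2.0.9, Bowtie2 2.0.6 and HTSeq 0.6.1; a genome build is not given in the sources read here, so no coordinates or sequences are printed. Blank rows (17 of 33138) were left out. Of values under 50 reads, 71.6% to 73.5% came out whole within 0.01 of a read, too few for a count test. Columns of 3 dome-shaped libraries lacked the end of their titles and were assigned by the titles left.

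Log2(RPKM + 1) values of genes with 1 RPKM in 4 libraries were compared with limma 3.58.1 (R 4.3.3; lmFit, eBayes with trend, two-sided, no covariates), after a check on simulated data. Fold changes understate those of low genes. Members and lists were chosen with earlier results of these data known. Values per library are given for called members and, within each compartment, for up to 4 others of each direction by adjusted p; of the lists, called genes and EIF2AK4, ATF4, ASNS, AIMP1, AIMP2 and EEF1E1. Lists follow protein names or symbols, the latter through a RefSeq gene table of the species; EIF2AK4 matched more than 1 row. Alternatives were pseudocounts of 0.1 and 0.5, no filter, a mean of 5 RPKM, quantile and median-of-ratios scaling, each library left out, a replicate block, 95% identity and summed rows. Enzymes that the rules would name but that are not reported here remain in the counts, sums and medians.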

Additional observations from a re-analysis of the deposited data

Results flagged for a closer look

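Among 96 gene and group pairs checked, 6 values stood apart from the other 3 of their group by Dixon's gap over the group's range at the 95% level; chance marks about 1 in 20 groups. In dome-shaped replicate 1, FARSA had 46.1 RPKM against 72.3 to 74.0 RPKM in the other dome-shaped libraries. In dome-shaped replicate 2, HARS2, which the description rule does not take, had 24.7 RPKM against 25.9 to 26.02 RPKM. Primed replicate 3 held 27.8 RPKM of NARS2 against 22.3 to 23.1 RPKM in the other primed libraries, 28.8 RPKM of TARS2 against 21.2 to 22.1 RPKM, and 0.646 RPKM of TARS3 against 1.20 to 1.21 RPKM. Primed replicate 2 held 71.7 RPKM of WARS1 against 69.3 RPKM in each of the others.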

How the results depend on the processing

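Of 434 pairs of a tested synthetase and an alternative, 413 kept direction and call. The count of synthetases called higher (3) was 2 to 4 under the alternatives other than the block and the left-out libraries, and 1 to 3 with 1 library left out; YARS1 made the fourth where synthetases found by symbol were added, a choice made after seeing the data, as was reading the description without regard to case. None was called lower in any alternative. The median log2 fold change was 0.15 to 0.27 for cytosolic and -0.15 to -0.08 for mitochondrial enzymes over all alternatives. With 1 library left out, 381 to 1289 genes were called higher (995 with all libraries) and 655 to 1441 lower (1242). With 1 library left out, log2 fold changes near 0 changed sign: they ran over -0.109 to 0.12 for RARS1, -0.0946 to 0.019 for EARS2, -0.0155 to 0.0732 for KARS1 and -0.0495 to 0.0852 for AIMP1, which was -0.0035 with median-of-ratios scaling. The cause was not tested.

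Deviations from the group means of libraries with the same number after CES in their titles correlated at -0.096, 0.125, -0.015, -0.098 and 0.005. Libraries with different numbers gave -0.223 to 0.201, so these values cannot decide whether the number pairs the libraries. With that number as a replicate block, 0 synthetases were called higher (adjusted p 0.0552 for TARS3, 0.0603 for WARS1 and 0.137 for SARS1), the calls of EIF2AK4, GATC and PSAT1 were lost (0.0625, 0.0757 and 0.0972), 303 genes were called higher and 593 lower, and the AIMP1 log2 fold change was -0.0237. Depth limits the tyrosyl fragment most, and among the tested synthetases TARS3.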
